A study of Mus musculus with 16 samples.

Results

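Blood vessel genes were read in bulk RNA of 16 mouse mammary tumours. The set holds 36 genes of endothelium, pericytes and vascular smooth muscle, taken from a list by symbol, with the deposited transcript estimates summed per gene. All 36 matched the annotation among its 47311 genes, and 35 of them were among the 16154 genes with enough reads to be tested. Prox1 was the member left out by that filter. The members were divided by role into 5 genes of tip cells and sprouting endothelium, 10 of mature vessel endothelium, 11 of endothelium in general, 6 of pericytes, 2 of smooth muscle and 2 of lymphatic endothelium.

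Every tumour was grown in an obese female C57BL/6J mouse that had eaten a high-fat diet (60% of kcal) between 8 and 26 weeks of age. E0771-luciferase cells, a C57BL/6 mammary cancer line carrying a luciferase reporter, were placed in the mammary gland numbered 4, with 250000 cells per mouse in 25% matrigel. Anti-PD-1, an antibody that blocks the inhibitory receptor PD-1 on T cells, was given to 8 mice, and IgG2a, its isotype control, to the other 8. Each intraperitoneal dose was 200 ug in 50 ul, given every 3 days from day 3 after the cells until day 21. No lean or untreated mice were analysed here, so diet, tumour line and sex were the same in both groups. The tumours were whole tissue with the host's own vessels in them, and the line stands for 1 cancer model. The labels give each tumour its own animal number. Replicate numbers below only name tumours.

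A new vessel is led by a tip cell, an endothelial cell that follows VEGF and carries high levels of Dll4, Esm1, Apln and Angpt2, while the stalk behind it forms the tube. Mature vessels are held quiet by the receptor Tek, also called Tie2, whose activating ligand Angpt1 comes from mural cells and whose context-dependent antagonist Angpt2 comes from activated endothelium. Pericytes are recruited through the receptor Pdgfrb, and tumour vessels are often poor in them.

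Total estimated reads ran from 59036535 to 82591064 per tumour, and 3 tumours had been set apart by earlier results. IgG2a replicate 7, called the fat-rich tumour here, had 12 of 12 adipocyte markers at their highest of the 16 tumours, with a summed level of 12250 CPM (estimated counts scaled to a common library size with TMM factors) against a median of 158 CPM in the other 15. IgG2a replicate 3 held 34430 CPM of skeletal muscle markers, against at most 187.9 CPM elsewhere. The number of transcripts detected was 38993 in anti-PD-1 replicate 6 and 47997 or more in every other tumour. Comparisons between the treatments are given below with and without the fat-rich tumour. In bulk RNA, fewer cells of a type and less RNA per cell cannot be told apart.

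Endothelium was present in every tumour by the level of its defining genes. Compared per transcript length, in the authors' TPM, Eng was the most abundant member, with a median of 92.7 TPM over the 16 tumours, followed by Ramp2 at 67.4 TPM, a value that rests in part on a short transcript, and Egfl7 at 41.9 TPM. Eng encodes endoglin, a co-receptor for BMP ligands. Pecam1, the adhesion molecule CD31, had a median of 17.9 TPM and Cdh5, VE-cadherin of the endothelial junction, 10.1 TPM. Among pericyte members Pdgfrb led with 24.5 TPM, before Mcam at 10.9 TPM and Rgs5 at 6.41 TPM. The smooth muscle genes were scarce, at 0.486 TPM for Myh11 and 0.140 TPM for Cnn1. Prox1, the transcription factor that specifies lymphatic endothelium, was listed at 0 in 9 of the 16 tumours, and Ccl21a, a chemokine of lymphatic endothelium, had a median of 0.331 TPM. These levels show tumours with blood endothelium and pericytes in which the listed smooth muscle and lymphatic transcripts were scarce. Pdgfrb is also expressed by fibroblasts, and Eng by macrophages and stromal cells, so neither is restricted to vessels.

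The upstream sequences of 3 genes, chosen after values were seen, are shown, and each stops before the gene's first annotated base. They come from RefSeq on GRCm38.p6, are written 5′ to 3′ on the strand of the gene, and carry in capitals each match to CAGGAAG or CCGGAAG on either strand, the core letters bound by many ETS factors, a family that includes the endothelial regulators Erg and Fli1. Emcn lies at chr3:137340828-137341066 on the plus strand, Tek at chr4:94739039-94739288 on the plus strand, and Apln at chrX:48034854-48035103 on the minus strand.
Emcn: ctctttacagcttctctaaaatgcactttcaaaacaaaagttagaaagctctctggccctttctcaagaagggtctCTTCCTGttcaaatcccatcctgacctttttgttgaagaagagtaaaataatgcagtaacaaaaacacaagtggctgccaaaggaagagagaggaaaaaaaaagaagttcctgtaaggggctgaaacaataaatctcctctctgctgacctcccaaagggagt
Tek: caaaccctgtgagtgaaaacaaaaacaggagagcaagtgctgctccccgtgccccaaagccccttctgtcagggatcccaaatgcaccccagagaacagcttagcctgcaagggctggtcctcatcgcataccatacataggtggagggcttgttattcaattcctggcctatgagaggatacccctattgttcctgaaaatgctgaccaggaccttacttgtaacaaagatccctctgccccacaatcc
Apln: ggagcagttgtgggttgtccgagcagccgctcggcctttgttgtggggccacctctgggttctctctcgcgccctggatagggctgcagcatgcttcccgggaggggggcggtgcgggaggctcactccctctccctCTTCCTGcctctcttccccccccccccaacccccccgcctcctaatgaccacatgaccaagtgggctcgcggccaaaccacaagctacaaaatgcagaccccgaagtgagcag

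Emcn and Apln each held 1 match, beginning 174 and 113 bases before the RefSeq start, and Tek held 0 in its 250 bases. Of the 19 members with a RefSeq promoter, 6 held such a match within 250 bases, namely Apln, Cd34, Egfl7, Emcn, Erg and Robo4. Counted by promoter, these were 7 of 24, or 29.2%, against 17.0% of all 32851 promoters. The letters AACAATG, a core of SOX sites, stood in 2 of the 24, those of Cnn1 and Erg, against 3.29% of all promoters. ACGTG, the core of hypoxia-response elements, stood in 1 of 24, that of Notch3, against 16.6% of all. The CArG box of smooth muscle genes stood in 0 of 24, against 1.47% of all. Of the smooth muscle members only Cnn1 had a promoter among the 24, and Myh11 had none. The motifs were searched on both strands, and a match describes letters only.

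The clearest pattern among the members was the level of vessel transcripts in the fat-rich IgG2a tumour, where Tek, Ptprb, Myh11 and most other members were far above the other 15 tumours while Apln, Angpt2, Esm1 and Pdgfrb were not. Of the 35 tested members, 30 had their highest value of the 16 tumours there, against 30.7% of all genes tested. In 29 of 35 the value was at least 4-fold above the median of the other 15 tumours, against 14.7% of all genes tested, a fold chosen after the values were seen. The median ratio was 13.0 over the tested members and 1.02 over all genes tested. With a single tumour of this kind these ratios are descriptions and have no test.

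**Figure D1:**
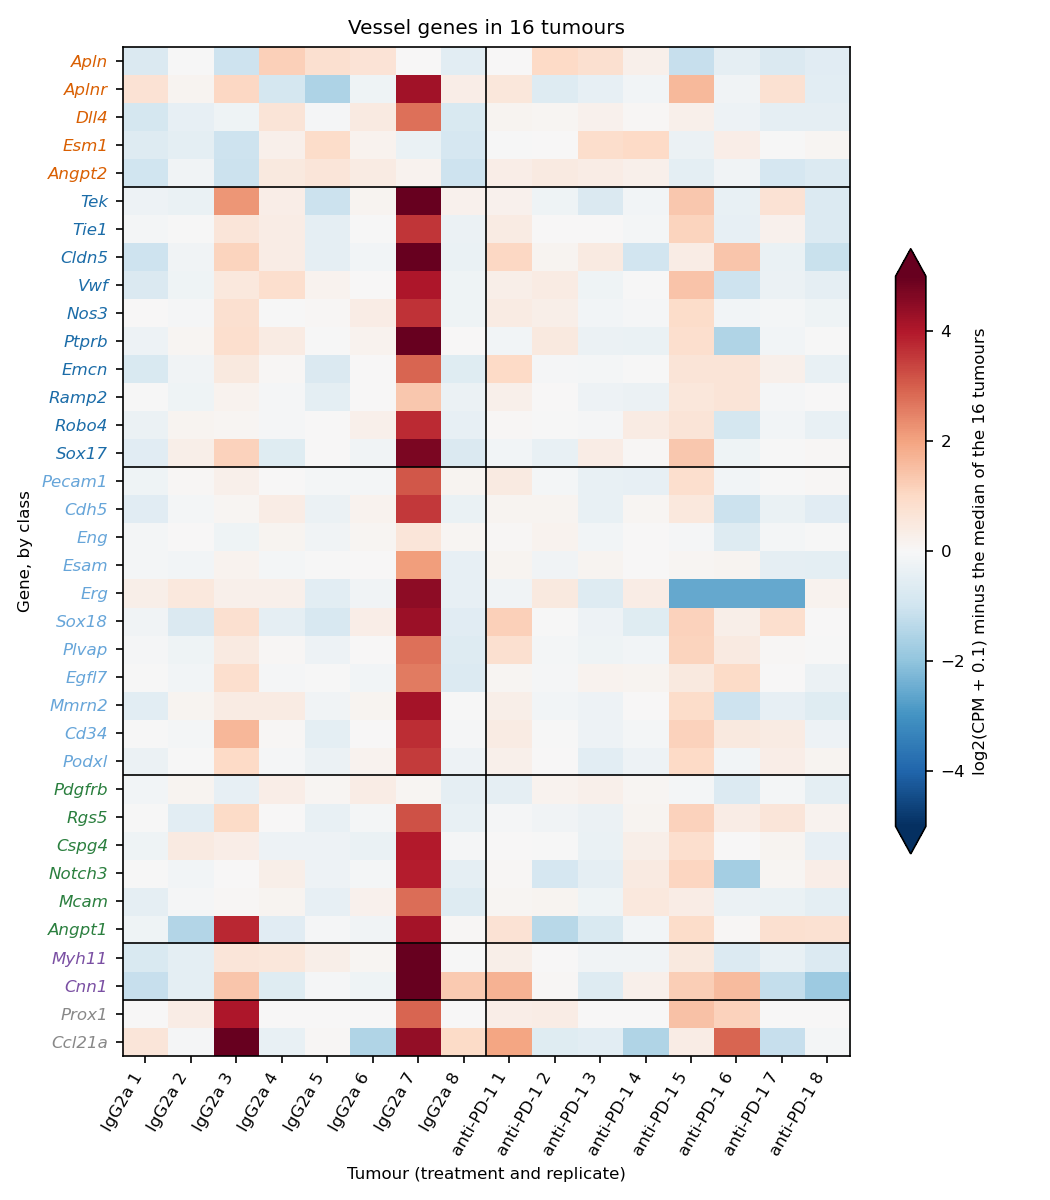
Level of the 36 genes (rows, symbol colour and lines mark the 6 classes) in the 16 tumours (columns, IgG2a left, anti-PD-1 right), as log2(CPM + 0.1) minus the gene's median over the tumours, with the colour scale ending at 5 in either direction. IgG2a replicate 7 forms a dark column that is faint or absent for Apln, Esm1, Angpt2, Pdgfrb and Eng, and the dark cells of IgG2a replicate 3 are those of Angpt1, Prox1 and Ccl21a.

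In the same tumour, markers of other cell types were also higher. Erythroid markers summed to 25790 CPM, 321.2 times the median of the other 15 tumours, with 7 of 7 tested genes at their highest. Myoepithelial markers were 13.6 times that median, mammary epithelial markers 8.16 times, fibroblast markers 5.56 times and leukocyte markers 3.98 times, while skeletal muscle markers were 1.03 times it. Of the mammary epithelial list, Wap was at 0 in all tumours. The ranges of the summed adipocyte markers were 128.3 to 496.1 CPM in the other 7 IgG2a tumours and 120.9 to 289.3 CPM in the 8 anti-PD-1 tumours. The part of these cell types in the vessel values was not tested.

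Genes listed for sprouting endothelium split into sets in that tumour, and which cells carried them in bulk RNA was not tested. Apln, the ligand apelin, stood at 12.5 CPM there, within the 5.53 to 28.4 CPM of the other 15 tumours. Angpt2 stood at 19.5 CPM, within 8.13 to 26.6 CPM, and Esm1, the tip cell proteoglycan endocan, at 3.06 CPM, within 1.81 to 7.86 CPM. Their ratios to the median of the other 15 were 1.02, 1.28 and 0.784. By contrast Aplnr, the apelin receptor, stood at 108.8 CPM against 1.89 to 18.1 CPM elsewhere, and Dll4, the Notch ligand of tip cells and arteries, at 39.6 CPM against 3.06 to 9.18 CPM. Aplnr is also found on venous and capillary endothelium. Neither Aplnr nor Dll4 in the other tumours reached a value near that of the fat-rich tumour, which was 6.02 and 4.32 times the next highest.

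Of the 10 mature vessel genes, 9 were at least 4-fold above the median of the other 15 tumours and all 10 were at their highest, with a median ratio of 15.2. Tek stood at 71.7 CPM in the fat-rich tumour and between 0.713 and 7.79 CPM elsewhere. Ptprb, the phosphatase VE-PTP that restrains Tek, stood at 319.1 CPM against 3.15 to 16.4 CPM. Cldn5, the tight junction claudin of endothelium, stood at 129.3 CPM against 1.69 to 9.94 CPM. Vwf, the clotting factor stored in endothelial granules, was 16.8 times the median of the others, Sox17, an arterial transcription factor, 28.0 times, Robo4 13.7 times, Nos3, the endothelial nitric oxide synthase, 13.0 times, Tie1 12.2 times and Emcn, the sialomucin endomucin, 7.68 times. Ramp2, the co-receptor that makes the adrenomedullin receptor, differed least, with 76.2 CPM against 21.3 to 47.0 CPM. Ramp2 overlaps Vps25 on the same strand, and reads of the shared part were divided by the authors' estimate.

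General endothelial genes showed 10 of 11 at least 4-fold above the other tumours' median, with a median ratio of 11.4. Pecam1 stood at 393.8 CPM against 34.9 to 81.9 CPM, and Cdh5 at 413.1 CPM against 16.7 to 50.4 CPM. Sox18, a transcription factor of vessels and lymphatics, was 19.7 times the median of the others, the matrix protein gene Mmrn2 18.6 times, Cd34 13.2 times, Podxl 11.4 times, Plvap, the diaphragm protein of fenestrated vessels, 6.91 times, Egfl7 6.00 times and Esam 4.30 times. Eng was the exception with 329.2 CPM against 139.2 to 248.1 CPM, a ratio of 1.51. Erg, an ETS factor, stood at 13.3 CPM there and at 0.279 to 0.756 CPM in 12 other tumours, and it was listed at 0 in anti-PD-1 replicates 5, 6 and 7. Pecam1 and Cdh5 were read in all 3, and whether the 0 of Erg was a failed estimate was not tested.

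Mural genes divided as well. Among pericyte genes 5 of 6 were at least 4-fold above the others' median, with Angpt1 at 22.2 times, the proteoglycan gene Cspg4, or NG2, at 16.1 times, the mural receptor Notch3 at 15.9 times, Rgs5 at 9.34 times and Mcam at 7.35 times. Pdgfrb did not follow them, with 119.3 CPM in the fat-rich tumour and 70.6 to 145.7 CPM in the others. The smooth muscle genes had the highest median ratio of the classes, 52.3, with 35.2 for Myh11, the smooth muscle myosin heavy chain, with 86.4 CPM against 1.43 to 3.90 CPM, and 69.3 for Cnn1, calponin, with 16.5 CPM against 0 to 1.09 CPM. Myoepithelial markers were 13.6 times the others' median in the same tumour. Whether the values of Myh11 and Cnn1 came from vessels or from such cells was not tested. Ccl21a stood at 5.74 CPM there, and its highest value, 13.3 CPM, was in IgG2a replicate 3.

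**Figure D2:**
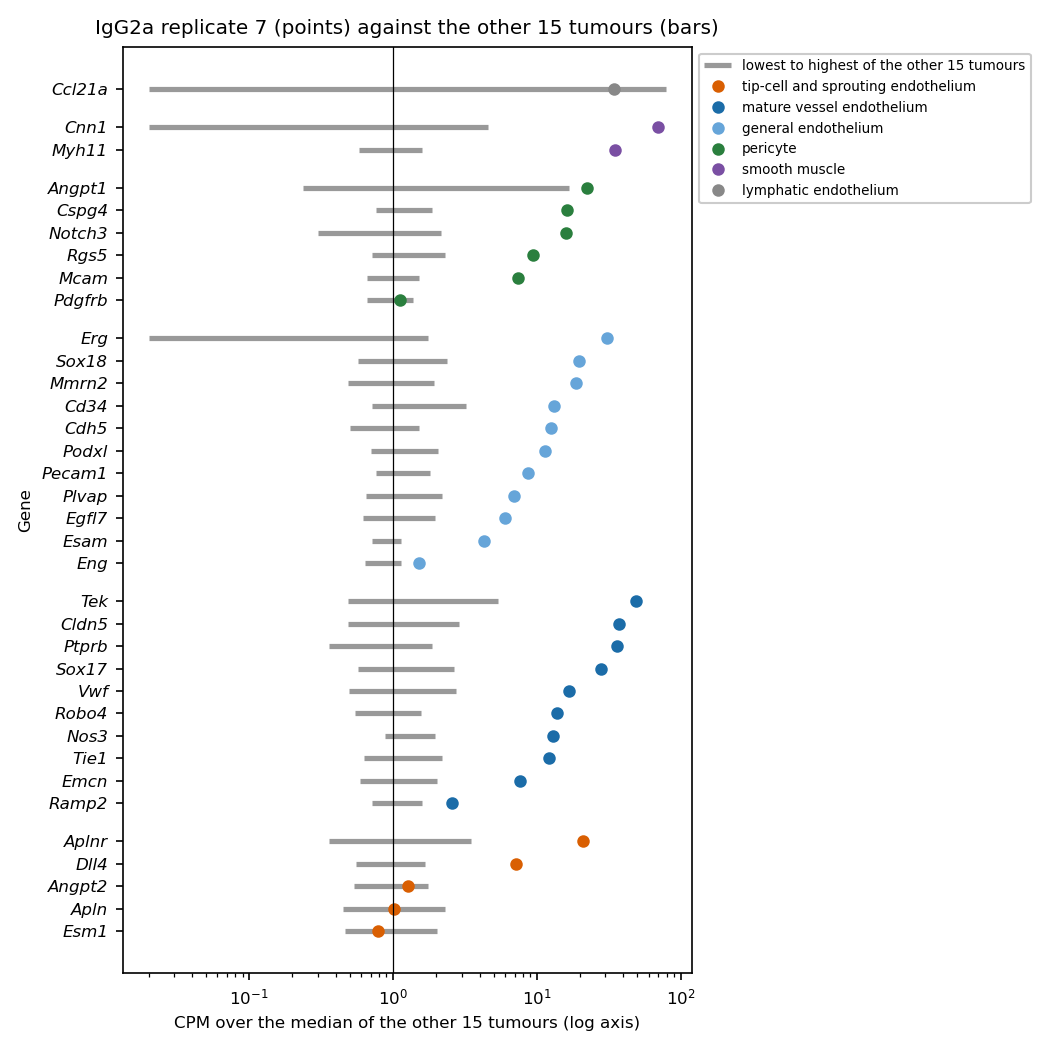
CPM in IgG2a replicate 7 divided by the median of the other 15 tumours (points, log axis), with a bar from the lowest to the highest of those 15 on the same scale, for the 35 tested genes by class. Bars of Erg, Cnn1 and Ccl21a reach a value of 0 and are drawn from 0.02, and only Apln, Esm1, Angpt2, Pdgfrb and Ccl21a have their point inside the bar.

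Class scores, the mean log2 CPM of a class's tested members in each tumour, set the classes against each other within a tumour. The tip-cell score minus the mature vessel score was -2.20 in the fat-rich tumour and lay between -0.88 and 0.88 in the other 15. The next lowest were IgG2a replicate 3 at -0.88 and anti-PD-1 replicate 5 at -0.54. The pericyte score minus the mature vessel score was -0.17 in the fat-rich tumour and 0.27 to 1.13 in the others. The smooth muscle score minus the pericyte score was -1.11 there and -5.52 to -2.46 in the others. So the mature vessel score in that tumour was higher relative to the tip-cell and pericyte scores than in any of the other 15. The smooth muscle score lay closer to the pericyte score. Of the pericyte genes, Pdgfrb was 1.12 times the median of the other 15 there, and the rest 7.35 to 22.2 times. Of the tip-cell genes, Apln, Esm1 and Angpt2 were 0.784 to 1.28 times that median, and which cells carried these transcripts was not tested.

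**Figure D3:**
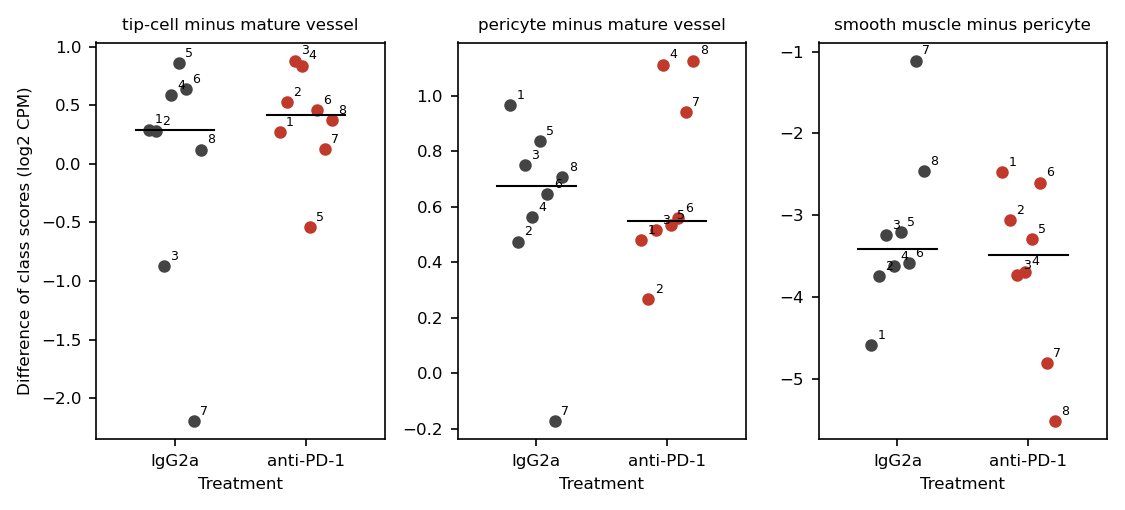
Difference between class scores (log2 CPM) in each tumour by treatment, with the replicate number beside each point and the group median as a line. IgG2a replicate 7 is the lowest tumour in the left and middle panels and the highest in the right panel, and the 2 treatments overlap in all 3.

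Among the other 15 tumours, anti-PD-1 replicate 5 most often held the highest value, in 15 of the 35 tested members against 9.99% of all genes tested. These included Pecam1 at 81.9 CPM, Cdh5 at 50.4 CPM, Vwf at 33.6 CPM, Aplnr at 18.1 CPM and Notch3 at 12.5 CPM. The same tumour had the lowest Apln of all 16, at 5.53 CPM, and the second highest summed fibroblast, mammary epithelial and skeletal muscle markers, at 6732, 138.9 and 187.9 CPM. Its adipocyte score, 3.66, was second only to IgG2a replicate 3, at 4.09, among the 15, and the part of these cell types was not tested. IgG2a replicate 3, the tumour with skeletal muscle transcripts, was highest of the 15 in 6 of 35 tested members against 13.5% of all genes tested. They were Tek at 7.79 CPM, Cd34 at 38.6 CPM, Angpt1 at 7.96 CPM, Esam at 40.6 CPM, Myh11 at 3.90 CPM and Ccl21a at 13.3 CPM. Prox1 also had its highest value there, 1.57 CPM. Mesothelial markers summed to 30.4 CPM in that tumour and to at most 1.17 CPM elsewhere, and their part in these values was not tested.

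Anti-PD-1 was compared with IgG2a to ask whether checkpoint blockade in obese mice went with a change in vessel transcripts. No member passed an adjusted p of 0.05 in edgeR, as was so for 0% of all genes tested, and the smallest adjusted p over all genes was 0.434. DESeq2 called 4 genes and limma-voom 0, and neither called a member. The values of all 36 members overlapped between the treatments, and only 2 of 16154 genes, or 0.0124%, had values that did not. With all 16 tumours 33 of the 35 tested members had a lower estimate under anti-PD-1 and 2 a higher one, against 56.9% and 43.1% of all genes, and 12 had an unadjusted p under 0.05, each with a lower estimate, where 7.9% of all genes were lower and 3.47% higher at that p. Without the fat-rich IgG2a tumour 23 of 35 estimates were higher and 12 lower, against 49.5% and 50.5% of all genes, and 0 had an unadjusted p under 0.05, where 3.41% of all genes were lower and 3.73% higher. With the range of animal numbers as a term, 4 of the 35 had an unadjusted p under 0.05, each lower, against 5.56% of all genes in that fit, and 0 passed. The median log2 fold change of the members was -1.18 with that tumour and 0.06 without it, beside -0.05 and -0.0031 over all genes tested.

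**Figure D4:**
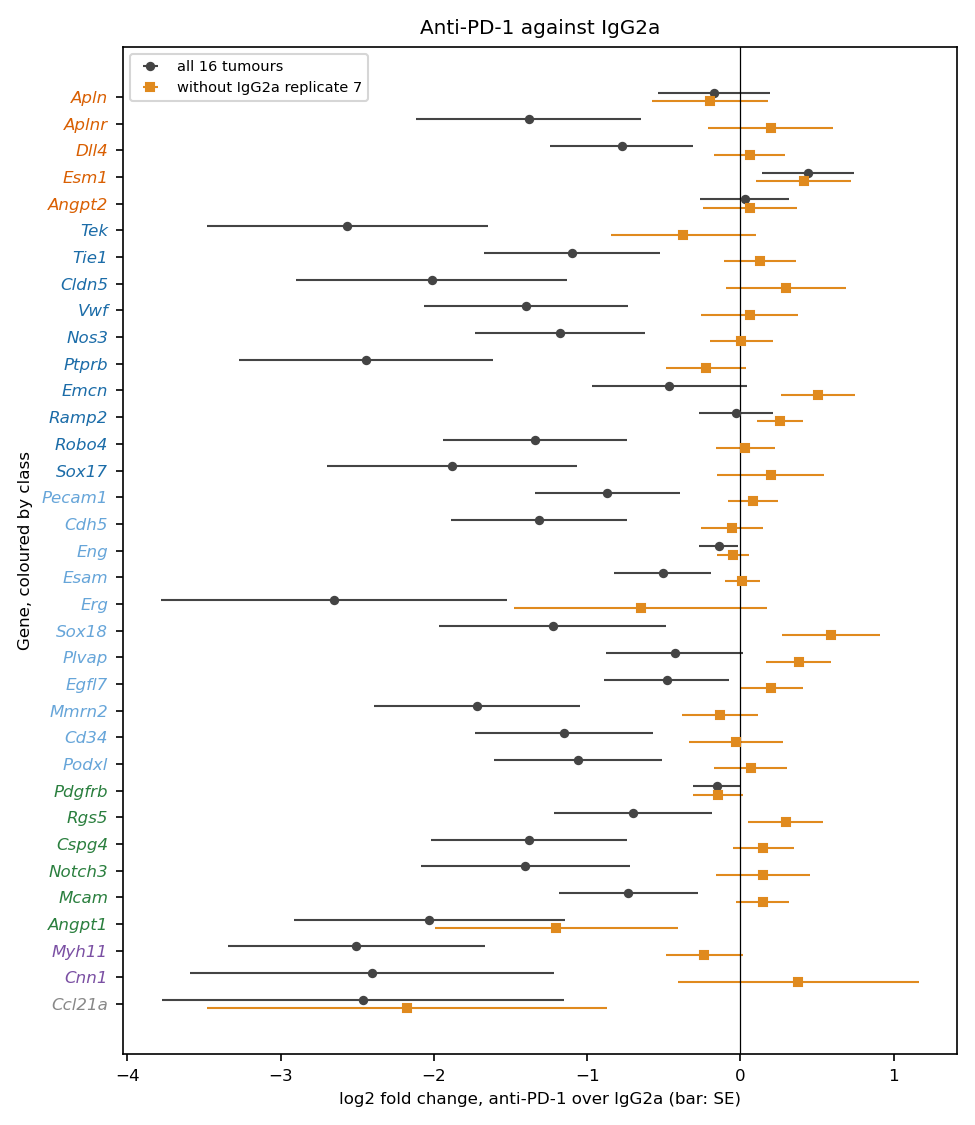
Log2 fold change of anti-PD-1 over IgG2a in edgeR with its SE for the 35 tested genes, with all 16 tumours (dark circles) and without IgG2a replicate 7 (orange squares). Most dark circles lie below 0 and most orange squares near 0, and only Apln, Esm1, Angpt2, Eng and Pdgfrb, which were little different in IgG2a replicate 7, and Ccl21a, keep a like value in both fits.

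The apelin and angiopoietin genes gave these values. Apln (ENSMUSG00000037010, chromosome X, 48025146 to 48034853 in GRCm38) ranged from 6.04 to 28.4 CPM with a median of 12.4 under IgG2a and from 5.53 to 24.9 CPM with a median of 10.7 under anti-PD-1. The Apln log2 fold change was -0.17 ± 0.36 (SE), with a 95% interval from -0.94 to 0.60 (adjusted p = 0.832), and -0.20 without the fat-rich tumour. The high and low Apln tumours were mixed between the treatments. Aplnr (ENSMUSG00000044338, chromosome 2, 85136225 to 85139923) ranged from 1.89 to 108.8 CPM with a median of 6.77 under IgG2a and from 3.65 to 18.1 CPM with a median of 5.18 under anti-PD-1. Its log2 fold change of -1.38 ± 0.74 (SE, adjusted p = 0.435) became 0.20 ± 0.41 (SE) without the fat-rich tumour, so its direction rested on that tumour. Angpt2 (ENSMUSG00000031465, chromosome 8, 18690263 to 18741562) had medians of 17.4 CPM under IgG2a, within 8.13 to 26.6, and 17.9 CPM under anti-PD-1, within 9.57 to 23.8. Angpt2 had a log2 fold change of 0.03 ± 0.29 (SE), with a 95% interval from -0.59 to 0.64 (adjusted p = 0.971), and 0.06 without the fat-rich tumour. Angpt2 overlaps Mcph1 on the opposite strand. Angpt1 (ENSMUSG00000022309, chromosome 15, 42424723 to 42676977) ranged from 0.112 to 10.6 CPM with a median of 0.449 under IgG2a and from 0.128 to 1.01 CPM with a median of 0.701 under anti-PD-1. Both high values belonged to IgG2a replicates 3 and 7. The Angpt1 log2 fold change was -2.03 ± 0.89 (SE, adjusted p = 0.434), -1.20 ± 0.79 without replicate 7, and 0.80 ± 0.48 without all 3 tumours set apart. Dll4 had an estimate of -0.77 ± 0.47 with replicate 7 and 0.06 ± 0.23 without it. For Esm1 the estimate was 0.44 ± 0.30, 8 of 8 anti-PD-1 tumours lay above the IgG2a median of 2.88 CPM, and the adjusted p was 0.484. Esm1 was the only tested member with 8 of 8 on 1 side of the IgG2a median, and its estimate without replicate 7 was 0.41 ± 0.31. Its ranges overlapped, at 1.81 to 7.42 CPM under IgG2a and 3.12 to 7.86 CPM under anti-PD-1. The share of all genes with 8 of 8 on 1 side is not given here.

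Most mature and general endothelial genes had estimates that moved toward 0 once the fat-rich tumour was left out. Ptprb (ENSMUSG00000020154, chromosome 10, 116275523 to 116389535) ranged from 7.65 to 319.1 CPM with a median of 10.004 under IgG2a and from 3.15 to 16.4 CPM with a median of 8.22 under anti-PD-1. For Ptprb the log2 fold change was -2.44 ± 0.83 (SE, unadjusted p = 0.00933, adjusted p = 0.434) with all tumours and -0.22 ± 0.26 without replicate 7. Ramp2 (ENSMUSG00000001240, chromosome 11, 101246028 to 101259546) had medians of 29.2 CPM under IgG2a, within 21.3 to 76.2, and 29.9 CPM under anti-PD-1, within 24.1 to 47.0. Its log2 fold change was -0.03 ± 0.24 and became 0.26 ± 0.15 without replicate 7. The lowest anti-PD-1 value of Ptprb was in replicate 6, the tumour with the highest Ramp2 of its group. Mmrn2 (ENSMUSG00000041445, chromosome 14, 34375465 to 34404287) ranged from 4.92 to 127.6 CPM with a median of 7.78 under IgG2a and from 3.35 to 13.3 CPM with a median of 6.18 under anti-PD-1. For Mmrn2 it was -1.72 ± 0.67 (SE, adjusted p = 0.434) and -0.13 ± 0.25 without replicate 7. Eng (ENSMUSG00000026814, chromosome 2, 32646595 to 32682669) was the most even member, with medians of 227.6 CPM under IgG2a, within 186.1 to 329.2, and 214.6 CPM under anti-PD-1, within 139.2 to 248.1. The Eng log2 fold change was -0.14 ± 0.13 (SE), with a 95% interval from -0.41 to 0.13 (adjusted p = 0.586), and -0.05 without replicate 7. The other 17 tested members of these classes had estimates from -2.65 for Erg to -0.43 for Plvap with all tumours, and from -0.65 for Erg to 0.59 for Sox18 without replicate 7.

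Among mural and lymphatic genes, the estimate of Pdgfrb was near 0 in both fits and those of Myh11 and Cnn1 were not. Pdgfrb (ENSMUSG00000024620, chromosome 18, 61045150 to 61085061) had medians of 119.3 CPM under IgG2a, within 82.4 to 145.7, and 105.5 CPM under anti-PD-1, within 70.6 to 135.1. Its log2 fold change was -0.15 ± 0.16 (SE), with a 95% interval from -0.48 to 0.18 (adjusted p = 0.632), and -0.15 without replicate 7. Myh11 (ENSMUSG00000018830, chromosome 16, 14194535 to 14291372) ranged from 1.43 to 86.4 CPM with a median of 2.90 under IgG2a and from 1.51 to 3.55 CPM with a median of 2.21 under anti-PD-1. It had the smallest unadjusted p of the members, 0.00841, and its estimate of -2.51 ± 0.84 (SE, adjusted p = 0.434) became -0.24 ± 0.25 without replicate 7. Rgs5, Cspg4, Notch3 and Mcam had estimates of -0.70, -1.38, -1.40 and -0.73 with that tumour and 0.30, 0.15, 0.15 and 0.15 without it, and Cnn1 -2.40 and 0.38. Ccl21a (ENSMUSG00000094686, chromosome 4, 42772860 to 42773993) ranged from 0 to 13.3 CPM with a median of 0.259 under IgG2a and from 0 to 2.03 CPM with a median of 0.128 under anti-PD-1. Its log2 fold change was -2.46 ± 1.31 with all tumours, -2.18 ± 1.30 without replicate 7 and 0.18 ± 0.91 without the 3 tumours set apart. The 2 high Ccl21a tumours were IgG2a replicates 3 and 7.

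With all 3 tumours set apart left out, 29 of 35 estimates were higher under anti-PD-1 and 6 lower, against 53.3% and 46.7% of all genes tested, and 3 members, Emcn, Sox18 and Rgs5, had an unadjusted p under 0.05 with a higher estimate, against 6.9% of all genes, and 0 with a lower one, against 8.88%. Their log2 fold changes were 0.60 ± 0.24, 0.85 ± 0.31 and 0.51 ± 0.21 (SE), with adjusted p of 0.276, 0.276 and 0.284, and 0 members passed. In the 16 tumours the same 3 genes had estimates of -0.46, -1.23 and -0.70.

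Ratios of single genes within a tumour were tested two-sided by exact permutation of the treatments among the tumours, in 12870 ways, whose smallest possible p is 1.6e-04. The log2 ratio of Angpt2 to Angpt1, the antagonist over the agonist of Tek, had a mean of 3.99 ± 2.35 in the 8 IgG2a tumours and 4.65 ± 1.28 in the 8 anti-PD-1 tumours (SD, p = 0.492 by exact permutation). It was 0.03 in IgG2a replicate 3 and 0.88 in IgG2a replicate 7, and 3.22 or more in the other 14 tumours. The log2 ratio of Pdgfrb to Pecam1 had means of 0.90 ± 1.13 and 1.09 ± 0.63 in the same order (SD, p = 0.749 by exact permutation). The fat-rich tumour was lowest at -1.72, against 0.35 to 1.93 in the other 15. Pdgfrb is not restricted to pericytes, so this ratio is not a measure of pericyte content. The other pericyte members were 7.35 (Mcam) to 22.2 (Angpt1) times the median of the other 15 in that tumour. The log2 ratio of Apln to Aplnr had means of 0.67 ± 2.20 and 0.84 ± 1.43 (SD, p = 0.853 by exact permutation), and it was also lowest in the fat-rich tumour, at -3.11. Adjusted over the 3 ratios each p was 0.853, and without the fat-rich tumour the differences were 0.22, -0.18 and -0.37, with adjusted p of 0.833.

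Across the tumours, the level of Apln varied with that of Angpt2. On log2 CPM over 16 tumours, Apln and Angpt2 had a Pearson r of 0.882 and a Spearman rho of 0.903 (permutation p = 2e-05 for each, the smallest that 100000 resamples give, adjusted p = 0.0002 over 10 gene pairs). Without the 2 tumours farthest from the median of Apln, r was 0.914, and it was 0.940 within IgG2a and 0.864 within anti-PD-1 over 8 tumours each. Animal numbers fall into a low and a high range, the only division of this kind in the labels, and r was 0.924 over the 6 low and 0.860 over the 10 high ones. Apln and Esm1 had r = 0.623 and rho = 0.641 (permutation p = 0.0108 and 0.009, adjusted p = 0.0134 and 0.0225), and r = 0.655 without the 2 farthest tumours. Adm encodes the vessel-dilating peptide adrenomedullin and is known to respond to hypoxia. It was added after its values were seen, so its pairs are descriptions, and a part of hypoxia was not tested. Adm had r = 0.793 to Apln and 0.669 to Angpt2 (rho 0.800 and 0.726), and 0.774 and 0.771 without the 2 farthest tumours. Pairs among Apln, Esm1 and Angpt2 had a median r of 0.725 over 16 tumours and 0.760 without the fat-rich tumour, while their 63 pairs with mature and general endothelial genes had a median r of -0.0961, within -0.437 to 0.290, and of -0.123, within -0.620 to 0.422. These genes were set apart from Aplnr and Dll4 after values were seen, so the medians are descriptions and not a test of a separate set.

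**Figure D5:**
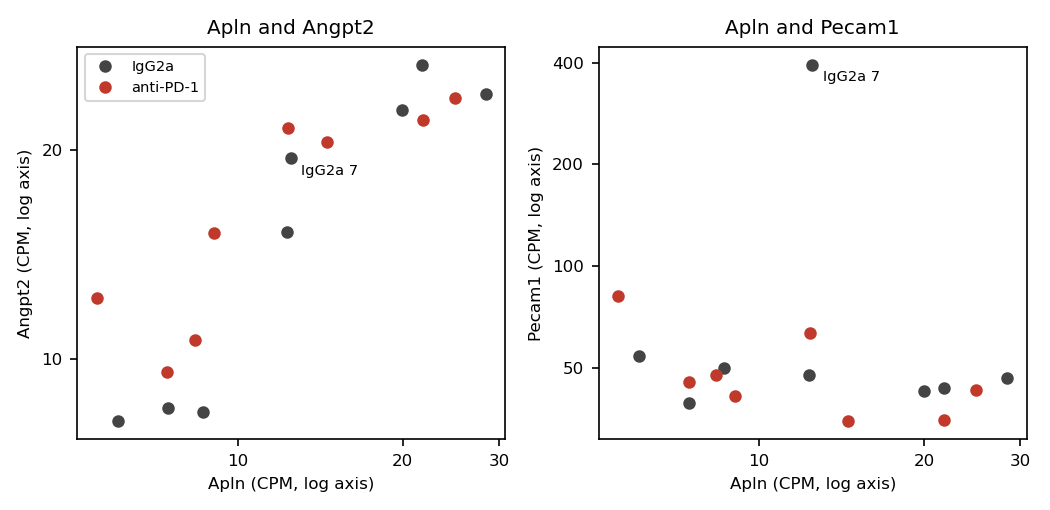
CPM of Apln against Angpt2 (left) and against Pecam1 (right) in the 16 tumours on log axes, coloured by treatment, with IgG2a replicate 7 named. On the left the tumours lie along a rising band that includes IgG2a replicate 7 (r = 0.882 on log2 CPM), and on the right IgG2a replicate 7 lies far above the others at a middle level of Apln.

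The high correlations among the other members fell when few tumours were left out. Pecam1 and Cdh5 had r = 0.922 (permutation p = 0.00177, adjusted p = 0.00386) and rho = 0.474 (p = 0.0666), and without the 2 tumours farthest from the median of Pecam1, IgG2a replicate 7 and anti-PD-1 replicate 5, r was 0.266. Pecam1 and Plvap went from r = 0.921 (rho 0.488, permutation p = 2.7e-04 and 0.0564) to 0.472, Myh11 and Cnn1 from 0.833 (rho 0.544, permutation p = 0.00239 and 0.0326) to 0.388, and Pecam1 with the adipocyte gene Adipoq from 0.837 (rho 0.544, permutation p = 0.00193 and 0.0313) to 0.320. Adjusted over the 10 pairs, the p of r in these 4 pairs was at most 0.00398 and that of rho at least 0.0543. Without IgG2a replicate 7 alone, r was 0.475, 0.703, 0.463 and 0.485 in the same order. Within the 8 anti-PD-1 tumours it was 0.515, 0.893, 0.504 and 0.848. Over the 210 pairs of mature and general endothelial genes the median r was 0.872 with the fat-rich tumour and 0.481 over the other 15, where 177 of 210 pairs were positive and r ran from -0.744 to 0.934. Pdgfrb had r = -0.00523 to Pecam1 (rho -0.332, permutation p = 0.988 and 0.211) and r = -0.0669 to Rgs5 (rho -0.309, permutation p = 0.833 and 0.244), and r = -0.476 and -0.0860 without the 2 farthest tumours, with adjusted p of 0.234 or more in all of these with 16 tumours. A relation of the pericyte receptor gene to Pecam1 or Rgs5 was not detectable over these 16 tumours.

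Lists of other genes from the same pathways and cell types were read in the same fit. None of the 8 lists held a gene that passed in edgeR. Their counts stand beside 56.9% of all genes tested with a lower estimate in the 16 tumours, 50.5% lower and 49.5% higher without the fat-rich tumour, and 14.7% at least 4-fold above the other tumours' median in it. Of 22 further endothelial genes 21 had lower estimates under anti-PD-1 and 6 a lower estimate at an unadjusted p under 0.05, against 7.9% of all genes, and without the fat-rich tumour 14 of 22 were higher and 0 had an unadjusted p under 0.05. Palmd, a gene of the endothelial list, had the smallest p, with 103.7 CPM in the fat-rich tumour against 1.04 to 8.29 CPM elsewhere. Of 12 further tip-cell genes 8 had lower estimates with that tumour and 5 without it, and 4 were at least 4-fold higher in the fat-rich tumour, against 17 of the 22 endothelial genes. Nrp1, the VEGF co-receptor neuropilin-1, was 12.8 times the median of the others there. Of 11 tested vascular Notch genes 9 had lower estimates with that tumour and 4 without it, with Jag2, a Notch ligand, at 15.9 times the median. Of 12 tested endoglin and BMP pathway genes 9 had lower estimates with that tumour and 5 without it, and Bmp4, a BMP ligand, stood at 5.27 CPM in the fat-rich tumour and at most 1.83 CPM elsewhere. Of 7 tested leukocyte adhesion genes 5 had lower estimates with that tumour and 4 without it, and Selp, P-selectin of platelets and endothelium, was 21.6 times the median.

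Of 12 further pericyte genes 10 were at least 4-fold higher in the fat-rich tumour, with Abcc9, a potassium channel subunit of mural cells, at 42.3 CPM there and up to 35.9 CPM elsewhere. Their estimates were lower in 10 of 12 with that tumour and higher in 9 of 12 without it. Of 12 tested genes of the smooth muscle list 10 had lower estimates with the fat-rich tumour and 8 without it, against 56.9% and 50.5% of all genes. Without it 6 had an unadjusted p under 0.05, where 3.41% of all genes were lower and 3.73% higher at that p. IgG2a replicate 3, with 34430 CPM of skeletal muscle markers, was still in that fit. Its part in these 6 was not tested. The list also holds genes of striated muscle or shared with it, such as Myom1, Casq2 and Des, so these counts are not particular to smooth muscle. Synpo2, an actin-binding gene of smooth and striated muscle, stood at 144.1 CPM in the fat-rich tumour and 161.5 CPM in IgG2a replicate 3, and its log2 fold change of -3.99 ± 1.10 was -3.31 without the first and 0.19 without the 3 tumours set apart. Of 4 tested lymphatic genes 3 had lower estimates both with that tumour and without it, and Lyve1, a hyaluronan receptor that some macrophages carry too, stood at 152.9 CPM in the fat-rich tumour, against 0.217 to 50.5 CPM elsewhere.

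Levels of some members depend on how reads were divided. For 14 of the 36 the annotation in use held 1 transcript and for 22 several. Short forms weigh on the per-length values of Vwf, where a transcript of 456 bases took 50.5% of the gene's TPM on average, and of Ramp2, where one of 424 bases took 45.9%. Of the 19 transcripts of Egfl7 the leading one took 13.1%. For 14 members an annotated gene lies on the opposite strand, among them Angpt2, Plvap, Egfl7, Nos3 and Eng, and since the libraries do not mark strand their reads cannot be told apart from the partner's where the 2 overlap.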

How the data were processed

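Bulk RNA was measured in 16 tumours, 8 per treatment. Per the labels' protocols, RNA with an integrity number above 5 was enriched with oligo-dT and made into non-directional libraries. Per the file headers, the deposited tables give each transcript an estimated count, not always whole, and the authors' TPM. GRCm38, edgeR and limma are named in the submitters' processing notes. The quantifier is not given in the sources used here.

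Transcripts were matched to GENCODE vM21 (114200 of 115088). Reads of unmatched transcripts, 0.167 to 0.217% per tumour, were dropped. Sums per gene were rounded, filtered (filterByExpr, minimum count 10, minimum total 15), scaled by TMM and fitted in edgeR 4.0.16 under R 4.3.3 (robust quasi-likelihood test, Benjamini-Hochberg adjustment over 16154 genes, threshold 0.05). CPM use the TMM-scaled totals. Class scores use a prior count of 2, and ratios log2(CPM + 0.1). On counts simulated for this comparison over 16154 genes the test recovered 22% of 50 genes changed 1.5-fold, 56% at 2-fold, 90% at 4-fold and 98% at 8-fold, with 5 false calls among 15954. The simulation held no outlying tumour, so these shares need not hold for members raised in IgG2a replicate 7. No pair of tumours in a group agreed within sampling noise (lowest chi-square per gene 27.5). Alternatives were other scalings, filters, DESeq2 1.42.0, limma-voom (limma 3.58.1), TPM scores and tumours left out.

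The members and lists were chosen with earlier results of these data known. In full are given, per class, the tested member of highest mean TPM and of smallest p, with Apln, Angpt1 and Angpt2, and of each pathway list the gene of smallest p. The 4-fold threshold, the motifs, the printed sequences, the pairs with Adm and the division of the tip-cell class were chosen after values were seen.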

Additional observations from a re-analysis of the deposited data

Results flagged for a closer look

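In groups of 8, a tumour was singled out where its gap to the nearest other tumour exceeded 0.526 of the group's range. Of 96 groups examined, 36 results met this. The limit is set for about 1 in 20 in a single group. The groups here share tumours and genes, so their count cannot be set against that rate. IgG2a replicate 7 was the high tumour in 32 and the low one in 2.

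On log2 CPM, the values of IgG2a replicate 7 were 6.77 for Aplnr and 5.31 for Dll4 among tip-cell genes. Among mature vessel genes they were 6.98 for Tie1, 7.02 for Cldn5, 7.68 for Vwf, 5.76 for Nos3, 8.32 for Ptprb, 5.32 for Emcn, 6.25 for Ramp2, 6.63 for Robo4 and 5.11 for Sox17. Among general endothelial genes they were 8.62 for Pecam1, 8.69 for Cdh5, 8.36 for Eng, 7.26 for Esam, 3.74 for Erg, 6.88 for Sox18, 7.99 for Plvap, 6.99 for Egfl7, 7.0 for Mmrn2 and 6.64 for Podxl. Among mural genes they were 7.65 for Rgs5, 6.01 for Cspg4, 6.54 for Notch3, 7.59 for Mcam, 6.43 for Myh11 and 4.05 for Cnn1.

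The class scores of IgG2a replicate 7 were 4.33 for tip-cell genes, 6.52 for mature vessel, 7.22 for general endothelium, 6.35 for pericyte and 5.24 for smooth muscle. It was the low IgG2a tumour in the pericyte minus mature vessel score, at -0.17, and in the log2 ratio of Pdgfrb to Pecam1, at -1.72. Anti-PD-1 replicate 5 was the high tumour of its group for Sox17, at 1.73, and anti-PD-1 replicate 6 the low one for Eng, at 7.12.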

How the results depend on the processing

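Of 703 alternatives over 31 results, 632 kept their direction and side of the threshold or moved by less than the spread between tumours, 3 moved further and 68 reversed. Members called were 0 in every alternative, and genes called were 0 in all but DESeq2, which called 4. DESeq2 replaced outlying counts in 29 of the 36 members, that of IgG2a replicate 7 in 27, and gave 22 higher and 14 lower estimates.

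Without all 3 tumours set apart, class median log2 fold changes were 0.06 (tip-cell), 0.27 (mature vessel), 0.15 (general), 0.26 (pericyte), 0.21 (smooth muscle) and 0.18 (lymphatic). Score differences were 0.14 (tip-cell), 0.25 (mature vessel), 0.0873 (general) and 0.26 (pericyte). The tip-cell minus mature vessel difference was -0.11, and the ratio differences were -0.51 for Angpt2 over Angpt1, -0.24 for Pdgfrb over Pecam1 and -0.72 for Apln over Aplnr. Single genes were at 0.48 (Aplnr), -0.04 (Angpt2), 0.0267 (Ptprb), 0.21 (Ramp2), 0.0238 (Mmrn2), 0.80 (Angpt1) and 0.18 (Ccl21a). DESeq2 gave class medians of 0.0259 (tip-cell), 0.0458 (mature vessel), 0.0071 (general), 0.14 (pericyte) and 0.0766 (smooth muscle), with Aplnr at 0.20 and Angpt1 at 0.59. With limma-voom and quality weights the class medians were 0.0011 (mature vessel), -0.0072 (general), 0.11 (pericyte) and -0.74 (smooth muscle), with Aplnr at 0.26, Angpt2 at -0.17, Ramp2 at 0.15 and Angpt1 at 0.70. Ramp2 was 0.0012 under upper-quartile scaling and 0.0543 under limma-voom. Apart from the fits that drop tumours or replace counts, the cause was not tested.

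Leaving out 1 tumour at a time, the class medians ranged from -0.37 to 0.0626 (tip-cell), -1.58 to 0.09 (mature vessel), -1.23 to 0.01 (general), -1.20 to 0.15 (pericyte), -2.65 to 0.07 (smooth muscle) and -3.42 to -1.11 (lymphatic). Score differences ranged from -0.11 to 0.17, -0.55 to 0.07, -0.55 to -0.06, -0.43 to 0.06, -1.06 to -0.10 and -1.79 to -0.53 for the same classes. The contrasts ranged from 0.09 to 0.53 (tip-cell minus mature vessel), -0.0139 to 0.16 (pericyte minus mature vessel) and -0.65 to -0.16 (smooth muscle minus pericyte). The ratio differences ranged from 0.10 to 0.98 (Angpt2 over Angpt1), -0.18 to 0.32 (Pdgfrb over Pecam1) and -0.37 to 0.57 (Apln over Aplnr). Apln ranged from -0.37 to 0.0378, Aplnr from -1.72 to 0.20, Angpt2 from -0.0746 to 0.16, Ptprb from -2.62 to -0.22, Ramp2 from -0.12 to 0.26, Mmrn2 from -1.93 to -0.13 and Angpt1 from -2.21 to -1.20. The class medians, other than the tip-cell and lymphatic ones, stayed between -2.65 and -0.98 unless IgG2a replicate 7 was left out.

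No paired analysis was possible because the labels give animal numbers that no 2 tumours share. Depth limits Prox1, Ccl21a, Cnn1, Erg and Angpt1, each under 1 CPM in most tumours.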

Other observations

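Among the 15 tumours other than IgG2a replicate 7, and leaving aside the lymphatic class with its 1 tested gene, the smooth muscle score was spread most widely, from -2.23 in anti-PD-1 replicate 8 to 0.90 in anti-PD-1 replicate 1 (SD 0.91). That score is the mean of Myh11 and Cnn1 alone, whose SD over these tumours was 0.48 and 1.52. Cnn1 lay near the floor, at 0 to 1.09 CPM, with its 0 in anti-PD-1 replicate 8. The general endothelial score was spread least, from 3.60 in anti-PD-1 replicate 6 to 4.57 in IgG2a replicate 3 (SD 0.27). Among single members the SD of log2 CPM over these 15 tumours was 0.20 for Eng, at percentile 20.2 of all genes tested, 0.31 for Pecam1, at percentile 41.0, and 0.78 for Apln, at percentile 80.3.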
